A study of Mus musculus with 20 samples.

Results

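Fetal liver expression under dams that lacked Cpt2 in their own liver was compared with that under floxed dams with intact liver Cpt2. The comparison used 8 of the 20 libraries of the series, 4 for each kind of dam, and covered every gene with a log2 value of at least 0 in at least 4 of the 20 libraries, which left 11805 tested genes. The dams of the knockout group were Cpt2f/f with Albumin-Cre (Cpt2LKODam_FloxFetus), and those of the control group were Cpt2f/f without Cre (FloxDam_FloxFetus). Fetuses of both groups are labelled Cpt2f/f, all mice are labelled C57BL/6, all dams were fasted for 24 h, and livers were taken at stage E17.5 from 2 female and 2 male fetuses per group. The sample titles call the floxed fetuses and the control dams wild-type, whereas the genotype labels say floxed. The Albumin promoter drives Cre in hepatocytes, so the dam's label concerns her liver and not the placenta or other maternal tissues. The fetus is covered by its own label, Cpt2f/f, and its Cpt2 level is given below.

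Cpt2 is the inner mitochondrial carnitine palmitoyltransferase, which hands long-chain fatty acids to beta-oxidation. A fasting liver without it cannot oxidise long-chain fatty acids or turn them into ketone bodies. The series holds no maternal blood or liver, so maternal fatty acids were not measured. In the fetal liver, fatty acids activate the nuclear receptor PPARA, which switches on genes of fatty acid oxidation, and near term the liver also prepares for birth by storing glycogen and by responding to glucocorticoids.

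Values were log2 expression on a per-length scale, quantile-normalised before deposit, and a difference is the mean of the knockout-dam libraries minus the mean of the floxed-dam libraries, with n = 4 in each group. Read depth is unknown, but between 24231 and 25860 genes had a value in each of the 8 libraries, and pairs of these libraries correlated at 0.939 to 0.982 across genes. The labelled fetal sex matched Xist in 8 of 8 libraries. Hepatocyte and erythroid markers were abundant, as befits a fetal liver in which blood is formed: 34 of 34 hepatocyte genes and 33 of 34 erythroid genes on the lists were tested. Libraries are written in the order of their replicate numbers, floxed-dam libraries first.

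Several libraries stood apart. Floxed-dam libraries 3 and 4 carry the same dam number and are presumed littermates, whereas each of the remaining 6 has a separate dam number. The pair was the richest in hepatocyte genes: the mean log2 level of the 34 genes was 8.48, 8.81, 9.69 and 9.64 in the floxed-dam libraries and 9.35, 9.14, 9.31 and 9.15 in the knockout-dam libraries. The knockout-dam libraries thus lay between the 2 pairs of controls. Transcripts without a poly(A) tail (Rn7s1, Rn7s2, Rn7sk, Rmrp and Rpph1), a list chosen after the values were seen, had a summed linear level of 107, 82.8, 70.4 and 66.0 in the floxed-dam libraries and of 218, 115, 108 and 490 in the knockout-dam libraries. On this sum every knockout-dam library was above every floxed-dam library, knockout-dam library 3 by only 108 against 107, and libraries 1 and 4 were highest. The mean log2 level of the same 5 genes was 3.93, 3.67, 2.68 and 3.24 against 4.87, 3.15, 3.37 and 6.02, so knockout-dam libraries 2 and 3 lay among the controls on that scale. Only Rn7s1 had no overlap between the groups, and Rn7s2 had a negative difference (-1.50 ± 1.28, adjusted p = 0.686). Rn7s1 and Rn7s2 are near-identical copies whose reads may be split, so neither their separate differences nor the mean log2 level can be read alone. Knockout-dam libraries 2 and 3 were at 6.31 and 6.23 for Rn7s1 but at -0.02 and 1.54 for Rn7s2. Floxed-dam library 3 was at 1.07 for Rn7s1 and 5.68 for Rn7s2. The replication-dependent histone genes, whose transcripts also lack the tail, had a median difference of 0.72 over 56 genes. Of these, 49 were positive (48.9% of all genes) and 3 were higher without overlap (3.25% of all genes). Their mean log2 level was 1.38, 1.58, 0.45 and 0.15 against 1.96, 1.63, 1.00 and 1.94. Floxed-dam libraries 3 and 4 were thus the lowest, and knockout-dam library 3 was below floxed-dam libraries 1 and 2. Knockout-dam library 2 held pancreas transcripts, with a summed level of 924 over 18 genes against 61.2 to 145 in the other 7 libraries. Of those 18 genes, 16 reached a log2 value of 0 in at least 1 knockout-dam library and 3 did so in a floxed-dam library.

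**Figure D1:**
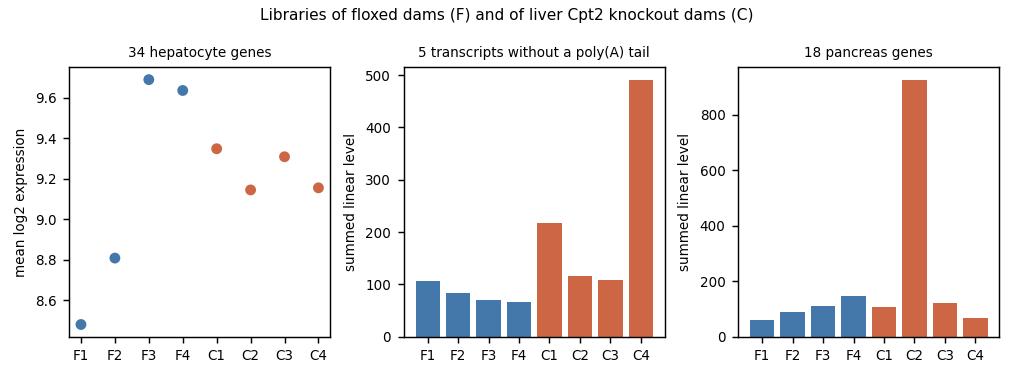
Each panel shows the 8 libraries, floxed dams F1 to F4 and liver Cpt2 knockout dams C1 to C4, on the x axis. The y axis gives the mean log2 expression of hepatocyte genes (left) or the summed linear level of transcripts without a poly(A) tail (middle) and of pancreas genes (right). F3 and F4 are highest in hepatocyte genes, C1 and C4 in transcripts without a tail, and C2 in pancreas genes at 924.

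No gene passed the test: 0 of 11805 genes (0%) were higher and 0 (0%) were lower at an adjusted p under 0.05 (limma, Benjamini-Hochberg). At an unadjusted p under 0.05 there were 1311 genes (11.1%), 653 higher (5.53%) and 658 lower (5.57%). The groups did not overlap for 384 genes that were higher (3.25%) and 338 that were lower (2.86%) in the knockout-dam libraries. The median difference of all tested genes was -0.01, 5778 differences (48.9%) were positive and 6027 (51.1%) negative, and the middle 90% of genes lay between -0.53 and 0.48. The lowest adjusted p was 0.147, and 7 genes had one under 0.2. The absence of calls was sensitive to the libraries. Without floxed-dam library 1, 1 gene was called, Fgfr2, and without knockout-dam library 4 the 1 gene called was the predicted gene LOC108168067. The count at an unadjusted p under 0.05 was 616 without knockout-dam library 4 and 390 without knockout-dam libraries 1 and 4.

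The gene with the smallest p was Fgfr2 (chr7:130162451-130266808, GRCm38.p6), a receptor for fibroblast growth factors. Its log2 level was 1.30, 1.92, 2.12 and 2.10 in the floxed-dam libraries and 0.67, 0.97, 0.56 and 0.57 in the knockout-dam libraries. All 4 knockout-dam libraries lay below all 4 floxed-dam libraries. The difference was -1.17 ± 0.20 (SE; 95% interval -1.58 to -0.75; adjusted p = 0.147), and it was -0.45 with 4 added to the linear values. Pdzk1, which encodes a scaffold protein of membrane transporters, stood at 3.62, 3.19, 3.63 and 3.39 against 2.02, 2.74, 2.58 and 2.27, again without overlap (-1.06 ± 0.20, adjusted p = 0.166). Tcea3 (a transcription elongation factor), Fam114a1 and Car8 were lower by the same kind of pattern, with differences of -0.92, -0.87 and -0.92 and no overlap. On the other side, Adm, which encodes the vasodilator peptide adrenomedullin, was at 0.61, -0.07, 0.66 and 0.80 against 2.06, 1.39, 1.43 and 1.82 (1.18 ± 0.24, adjusted p = 0.198). The knockout-dam libraries were all higher. Ftl1-ps1, a ferritin pseudogene that shares sequence with its parent gene and whose reads may therefore be split, was higher by 1.44 ± 0.29 (adjusted p = 0.198).

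Cpt2 and Ppara themselves were examined next. Fetal Cpt2 (chr4:107903982-107923589, protein-coding) was at 3.90, 3.61, 4.26 and 4.23 in the floxed-dam libraries and at 3.95, 3.83, 3.90 and 3.92 in the knockout-dam libraries. The groups overlapped throughout. The difference was -0.10 ± 0.16 (95% interval -0.44 to 0.24; adjusted p = 0.849). This level belongs to the fetus and does not check the deletion in the dam. Ppara, the fatty acid receptor gene, was at 2.96, 2.88, 3.68 and 3.71 against 3.27, 3.29, 3.40 and 3.44, a difference of 0.04 ± 0.26 (95% interval -0.51 to 0.60; adjusted p = 0.964). Here too the knockout-dam libraries fell between the pairs of controls.

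Several PPARA targets of fatty acid oxidation had higher values, whereas the lists of fatty acid oxidation as a whole were close to the median of all genes. Of 52 canonical PPARA targets 47 were tested, none was called, and 35 differences were positive and 12 negative. At an unadjusted p under 0.05, 9 of the 47 were higher, against 5.53% of all tested genes, and none was lower, against 5.57%. For 8 of them all knockout-dam libraries exceeded all floxed-dam libraries, against 3.25% of all genes. The median difference was 0.20, beside -0.01 over all genes. These values moved with the libraries. Without floxed-dam libraries 3 and 4 the median was 0.41 and the count at that p was 16. Without floxed-dam library 2 the median was 0.11, with 31 positive differences, 7 genes higher and 1 lower at that p, and without knockout-dam library 3 it was 0.13 with 7 higher. The count was 6 without knockout-dam library 4, and the median was 0.10 with array weights. The median was 0.06 over 23 genes of mitochondrial fatty acid oxidation (16 positive, 3 higher at that p) and 0.06 over 26 of peroxisomal and microsomal oxidation (16 positive, 3 higher and 1 lower). Over 18 acyl-CoA thioesterases and synthetases it was -0.06, with 12 negative differences and 2 genes higher. In bulk RNA a change in the share of hepatocytes and a change in the RNA per hepatocyte cannot be told apart.

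Ehhadh (chr16:21761285-21787834, protein-coding), the bifunctional enzyme of peroxisomal beta-oxidation and a standard PPARA target, had the second smallest p of all genes. Its log2 level was 4.21, 3.17, 4.23 and 4.60 in the floxed-dam libraries and 5.47, 4.84, 5.64 and 5.87 in the knockout-dam libraries. Each knockout-dam library was above each control. The difference was 1.40 ± 0.26 (95% interval 0.85 to 1.95; adjusted p = 0.166), a 2.64-fold higher level.

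Pdk4, the kinase that shuts off pyruvate dehydrogenase so that fatty acids are burnt in place of glucose, was at 3.53, 3.31, 3.82 and 3.41 against 5.69, 4.04, 3.93 and 5.68. Knockout-dam libraries 1 and 4 were far above the rest, and libraries 2 and 3 were just above the highest control. The difference was 1.32 ± 0.39 (adjusted p = 0.346), and 0.47 without libraries 1 and 4, the ones with most transcripts lacking a tail. The part of RNA quality in this difference was not tested.

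Angptl4, a secreted inhibitor of lipoprotein lipase, was at 5.00, 4.83, 5.41 and 5.45 against 6.08, 5.66, 6.01 and 6.63, a difference of 0.92 ± 0.23 (95% interval 0.44 to 1.40; adjusted p = 0.321). The groups did not overlap. Pex11a, which helps peroxisomes divide, was at 2.33, 1.76, 2.15 and 2.14 against 2.85, 2.72, 2.68 and 3.61, with a difference of 0.87 ± 0.25 (adjusted p = 0.346). Eci2, an enoyl-CoA isomerase for unsaturated fatty acids, was at 5.21, 5.21, 5.52 and 5.35 against 5.72, 6.15, 5.94 and 5.77 (0.57 ± 0.20, adjusted p = 0.373). Neither gene had an overlap between the groups.

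The acyl-CoA thioesterases Acot1 and Acot2, which release free fatty acids from coenzyme A, are near-identical copies whose reads may be split. Acot1 was at 4.84, 4.20, 4.67 and 4.65 against 4.87, 5.07, 5.70 and 5.59, higher by 0.72 ± 0.28 without overlap (adjusted p = 0.383). Acot2 was higher by 1.00 ± 0.38 (adjusted p = 0.377), with an overlap. Among carnitine shuttle genes, the liver isoform Cpt1a was at 3.26, 3.03, 4.85 and 4.95 against 4.20, 4.39, 5.08 and 4.77. Controls 1 and 2 were the lowest libraries and controls 3 and 4 lay among the knockout-dam libraries, with a difference of 0.59 ± 0.41 (95% interval -0.26 to 1.44; adjusted p = 0.605), which was 1.46 without floxed-dam libraries 3 and 4. Slc25a20, the carrier that exchanges acylcarnitine for carnitine, was higher by 0.33 ± 0.16 and Cpt1b, the muscle isoform, by 0.46 ± 0.21 (adjusted p = 0.451 and 0.435).

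Not all targets shared this direction. Over the 9 tested genes of ketone body metabolism the median difference was -0.14, with 3 positive and 6 negative. None had an unadjusted p under 0.05, against 11.1% of all genes. Acadvl, which opens mitochondrial beta-oxidation of very long chains, differed by 0.14 ± 0.14 (adjusted p = 0.735). Cyp4a10 and Cyp4a14, omega-hydroxylases from a family of near-identical copies, differed by 0.30 ± 0.80 and 1.14 ± 0.89 (adjusted p = 0.915 and 0.653), and their libraries spread over more than the difference. Fgf21, a fasting hormone, did not reach the minimum level and was not tested.

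Genes that handle stored fat were mixed. Pnpla2 (chr7:141455188-141460743), which encodes the triglyceride lipase ATGL, was at 2.87, 3.06, 3.69 and 3.49 against 4.47, 3.93, 4.22 and 4.86, with every knockout-dam library above every control. The difference was 1.10 ± 0.24 (95% interval 0.59 to 1.60; adjusted p = 0.300). Cidec, a lipid droplet protein, was low in all libraries, at -2.56, -4.06, -0.49 and -1.95 against 0.18, 0.21, 0.22 and 0.21. Its difference of 2.47 ± 0.75 (adjusted p = 0.346) depends on the scale at such low levels, and it was 0.26 with 4 added to the linear values. The droplet coat gene Plin2 (entry Plin2_2 of the table) was at 5.62, 5.47, 5.45 and 5.52 against 5.66, 5.20, 5.64 and 5.99, a difference of 0.11 ± 0.23 (95% interval -0.37 to 0.60; adjusted p = 0.887) that turned to -0.01 without knockout-dam library 4. Plin3, another coat protein, had a difference of -0.58 ± 0.16 without overlap (adjusted p = 0.346), and Dgat2, which makes triglyceride, one of -0.42 ± 0.16 (adjusted p = 0.383). Of 19 tested genes of this list, 2 were higher and 4 lower at an unadjusted p under 0.05, against 5.53% and 5.57% of all genes. The 4 became 1 without floxed-dam library 3 or without knockout-dam library 4.

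**Figure D2:**
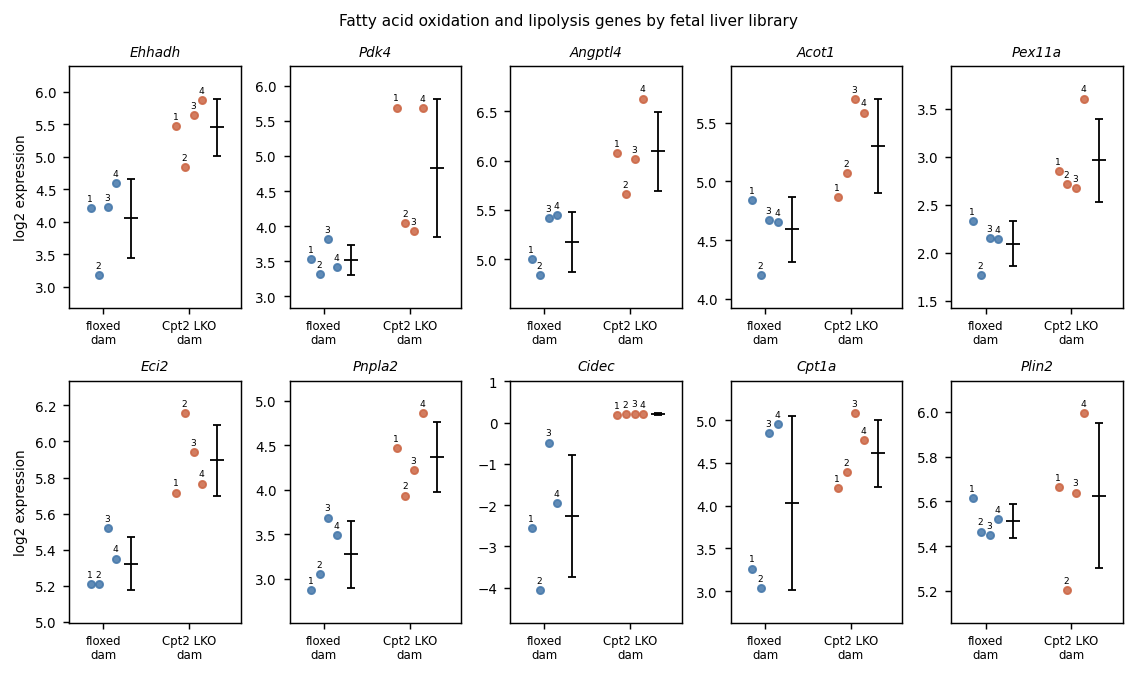
Log2 expression (y axis) of 10 genes of fatty acid oxidation and lipolysis in each library of floxed dams (blue) and of liver Cpt2 knockout dams (orange), with replicate numbers beside the points and black marks for the mean ± SD (n = 4). In 8 of the panels all knockout-dam libraries are above all floxed-dam libraries, and Cpt1a and Plin2 overlap.

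Genes of the glucocorticoid response had the highest median among the lists of metabolic and signalling genes examined here that hold at least 10 tested members. Glucocorticoids rise in fasting and near birth and act through the receptor that binds DNA beside many liver genes. None of 18 tested members was called, 17 differences were positive, and the median was 0.63 beside -0.01 over all genes. At an unadjusted p under 0.05, 5 were higher (5.53% of all genes), and 5 had no overlap between groups (3.25% of all genes). Tat, the tyrosine aminotransferase that appears in liver around birth, was at -0.22, -0.40, 3.53 and 3.00 against 3.65, 3.77, 4.70 and 3.86. Its controls split into the presumed littermates and the rest, and the knockout-dam libraries were above all of them (2.52 ± 1.03, adjusted p = 0.395). Pck1, the first committed enzyme of gluconeogenesis, was at 2.43, 1.23, 4.56 and 4.91 against 4.31, 4.81, 6.05 and 5.26, with an overlap (1.82 ± 1.07, adjusted p = 0.531).

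Ddit4, an inhibitor of mTOR signalling, was at 4.39, 3.17, 4.60 and 4.05 against 5.06, 4.61, 4.63 and 4.99, without overlap (0.77 ± 0.24, adjusted p = 0.354). Floxed-dam library 2 was the lowest, and the difference was 0.48 without it. Zbtb16, a transcription factor gene, was at 0.25, 0.63, 1.91 and 1.26 against 2.22, 1.55, 1.69 and 2.29 (0.92 ± 0.37, adjusted p = 0.392). Cdkn1a, the cell cycle inhibitor p21, was higher by 0.90 ± 0.33 (adjusted p = 0.377), and both of these genes overlapped between groups. The mean log2 level of the 18 genes was 4.42, 4.13, 5.03 and 4.89 in the floxed-dam libraries and 5.35, 5.01, 5.31 and 5.58 in the knockout-dam libraries. Only knockout-dam library 2 fell below a control, library 3. Without knockout-dam libraries 1 and 4 the median was 0.36 and 1 gene was higher at an unadjusted p under 0.05, and without floxed-dam libraries 3 and 4 these were 0.80 and 10. Angptl4 stands on this list and on that of PPARA targets, so the counts are not independent.

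**Figure D3:**
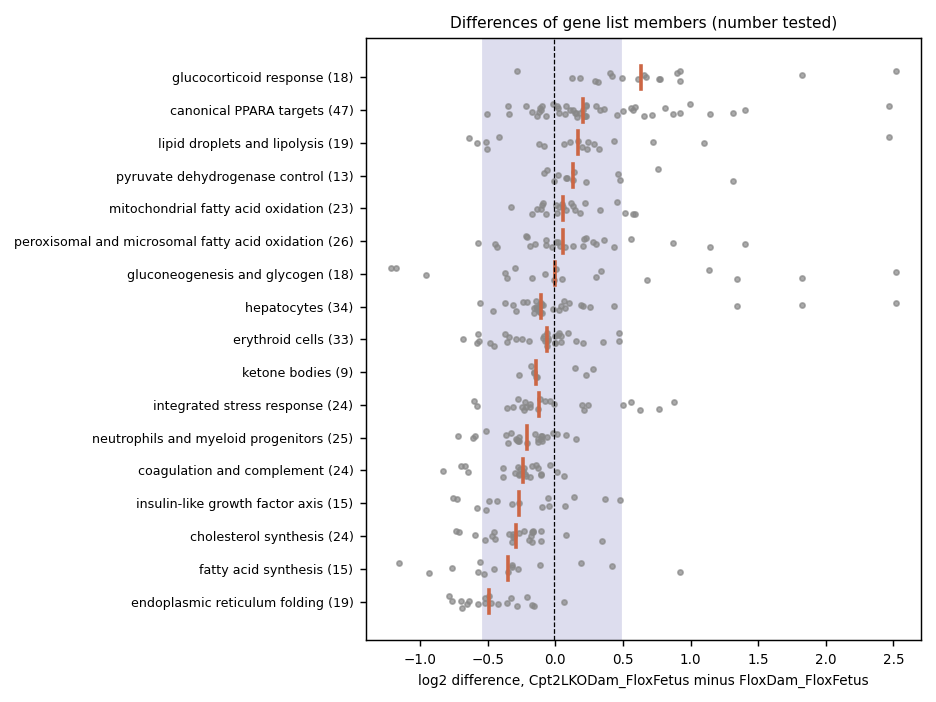
Log2 differences (x axis, knockout-dam minus floxed-dam libraries) of the tested members of 17 gene lists, with each grey point a gene, each orange bar the list median and the number tested in parentheses. The dashed line is the median of all tested genes, -0.01, and the shaded band holds the middle 90% of them, -0.53 to 0.48. The glucocorticoid list lies mostly to the right of the line and the endoplasmic reticulum folding list mostly to the left.

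Genes of protein folding in the endoplasmic reticulum (ER) lay on the lower side. The liver secretes plasma proteins in bulk, and its ER chaperones are switched on together when the unfolded protein response factors ATF6 and XBP1 bind the ER stress element of their promoters. That element reads CCAAT and, after 9 unspecified bases, CCACG, and it was searched on both strands of the RefSeq promoter windows (GRCm38.p6), which reach from 250 bases before to 50 bases after each start. It was present in 8 of the 17 list members with a promoter (Calr, Canx, Creld2, Dnajc3, Hsp90b1, Hspa5, Pdia6 and Syvn1), against 16 of 8710 tested genes with a promoter (0.184%) and 39 of all 32817 promoter windows (0.119%). The stretches of 5 of them are shown because these members were lower at an unadjusted p under 0.05, each 5′ to 3′ on the strand of the gene, with the element in capitals. In Calr, Creld2 and the second stretch of Hsp90b1 it lies on the opposite strand and is read in reverse complement. For Hspa5 the element alone is given.
Hspa5 (chr2:34772025-34772043, plus strand): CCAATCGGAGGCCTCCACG
Calr (chr8:84847055-84847113, minus strand): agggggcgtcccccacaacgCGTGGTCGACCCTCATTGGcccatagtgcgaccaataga
Canx (chr11:50325780-50325838, minus strand): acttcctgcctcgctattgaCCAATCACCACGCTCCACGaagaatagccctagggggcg
Creld2 (chr15:88819500-88819558, plus strand): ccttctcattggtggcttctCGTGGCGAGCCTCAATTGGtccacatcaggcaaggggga
Hsp90b1 (chr10:86705618-86705676, minus strand): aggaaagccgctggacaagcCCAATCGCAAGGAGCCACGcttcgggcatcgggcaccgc
Hsp90b1 (chr10:86705513-86705571, minus strand): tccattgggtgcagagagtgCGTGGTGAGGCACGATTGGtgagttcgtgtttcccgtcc
Pdia6 (chr12:17266471-17266529, plus strand): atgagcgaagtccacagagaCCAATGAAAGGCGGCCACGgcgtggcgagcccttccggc

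Of the 19 tested ER folding genes none was called, 18 differences were negative and the median was -0.49. At an unadjusted p under 0.05, 12 of the 19 were lower, against 5.57% of all genes, and 2 had no overlap, against 2.86%. Calr, the chaperone calreticulin, was at 7.27, 7.57, 8.38 and 7.86 in the floxed-dam libraries and at 7.10, 7.12, 7.15 and 7.11 in the knockout-dam libraries. The knockout-dam libraries were close to each other and below every control (-0.65 ± 0.16; 95% interval -0.98 to -0.32; adjusted p = 0.321). Its difference was -0.30 without floxed-dam libraries 3 and 4.

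Hspa5, which encodes the central ER chaperone BiP, was at 7.25, 8.16 and 8.22 in floxed-dam libraries 1 to 3, with library 4 between library 1 and library 2, against 7.05, 7.29, 7.18 and 7.56. Floxed-dam library 1 lay among the knockout-dam libraries and the other three controls were above them all (-0.64 ± 0.19, adjusted p = 0.346). Pdia4, a disulfide isomerase, was at 4.74, 5.26, 5.90 and 5.43 against 4.55, 4.81, 4.57 and 4.25, and also overlapped only through floxed-dam library 1 (-0.79 ± 0.20, adjusted p = 0.346). The transcription factor Xbp1 differed by -0.57 ± 0.17 (adjusted p = 0.350) and calnexin, Canx, by -0.52 ± 0.17 without overlap (adjusted p = 0.363). Creld2, an ER-resident protein that responds to ER stress, differed by -0.69 ± 0.26, the chaperone gene Hsp90b1 by -0.49 ± 0.18 and the disulfide isomerase gene Pdia6 by -0.42 ± 0.14, each with an overlap (adjusted p = 0.377, 0.377 and 0.373). Herpud1, of ER-associated degradation, was the 1 member with a positive difference (0.07 ± 0.22, adjusted p = 0.934).

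The mean log2 level of the list was 4.73, 5.29, 5.41 and 5.06 in the floxed-dam libraries and 4.60, 4.80, 4.58 and 4.67 in the knockout-dam libraries, so the groups met at floxed-dam library 1. The count of 12 was 6 without knockout-dam libraries 1 and 4, where the median was -0.46. Members with and without the element had medians close to each other: the 8 members with it had a median difference of -0.50 and 8 of 8 were negative, and the 9 members with a promoter but no match had a median of -0.48 and 8 negative differences. The 8 tested genes with the element that are not on the list had a median of -0.05, with 3 positive and 5 negative. One of these, Alg12, shares its promoter and its element with Creld2. The same windows were searched for a glucocorticoid response element. It was present in 1 of 16 glucocorticoid list members with a promoter and in 1 of 8710 tested genes. A direct repeat with 1 base between the copies was present in 0 of 36 PPARA targets with a promoter and in 5 of 8710 tested genes. Both elements were searched only as an exact pattern. Of all 32817 promoter windows, 3 held the glucocorticoid element and 13 held the direct repeat. Matches this rare cannot show whether list members lack these elements, since variant forms and sites outside the windows were not searched. Genes of the integrated stress response, another branch of ER and amino acid stress, had a median of -0.12 over 24 genes. At an unadjusted p under 0.05, 1 was higher and 0 were lower, against 5.53% and 5.57% of all genes. The median was 0.05 without floxed-dam library 1.

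Lipid synthesis genes were also mostly on the lower side. Of 24 tested genes of cholesterol synthesis 22 had a negative difference, the median was -0.29, and 4 were lower at an unadjusted p under 0.05 (5.57% of all genes). That count was 10 without floxed-dam library 2, in which the mean log2 level of the list, 3.77, was lowest, 2 without floxed-dam library 1, and 1 without knockout-dam library 4. Cyp51, a sterol demethylase, was at 4.23, 3.34, 3.68 and 3.74 against 3.32, 3.14, 2.99 and 2.69, with the groups just apart (-0.71 ± 0.21, adjusted p = 0.346). Hmgcs1, the synthase at the head of the pathway, was at 6.25, 5.17, 5.77 and 5.89 against 5.31, 4.89, 5.07 and 4.86 (-0.74 ± 0.30, adjusted p = 0.395). It overlapped through floxed-dam library 2.

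Fatty acid synthesis had 12 negative differences among 15 tested genes and a median of -0.35, with 4 lower and 1 higher at an unadjusted p under 0.05 (5.57% and 5.53% of all genes). The 4 became 10 without floxed-dam library 2 and 1 without floxed-dam libraries 3 and 4. Scd2 (chr19:44293676-44306864), a stearoyl-CoA desaturase prominent in fetal tissue, was at 5.51, 4.46, 5.46 and 5.49 against 4.14, 4.14, 4.24 and 3.78, with no overlap. The difference was -1.16 ± 0.25 (95% interval -1.68 to -0.63; adjusted p = 0.272). Fads2, the delta-6 desaturase of polyunsaturated fatty acids, was at 3.56, 2.76, 3.60 and 3.63 against 2.70, 2.23, 2.33 and 2.56, again without overlap (-0.94 ± 0.33, adjusted p = 0.373). Acly, which supplies cytosolic acetyl-CoA, and Elovl6, an elongase, had differences of -0.57 ± 0.20 and -0.76 ± 0.30 with overlap (adjusted p = 0.373 and 0.384). That of Elovl6 was -0.49 without knockout-dam library 4. Elovl5 was the gene with a positive difference among the 5 (0.42 ± 0.17, adjusted p = 0.395).

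Among genes of glucose production and glycogen, a pair of glycogen-targeting phosphatase subunits had negative differences. Ppp1r3c, which targets protein phosphatase 1 to glycogen, was at 2.74, 2.70, 3.71 and 3.29 against 1.78, 2.58, 2.09 and 1.30, without overlap (-1.18 ± 0.46, adjusted p = 0.383). Its relative Ppp1r3b was at 3.49, 3.60, 4.63 and 3.96 against 3.60, 3.69, 2.57 and 0.99. Knockout-dam libraries 1 and 2 lay within the controls, and the difference of -1.21 ± 0.46 (adjusted p = 0.377) was -0.64 without knockout-dam library 4. Over the 18 tested genes the median was -0.0042, with 3 higher and 4 lower at an unadjusted p under 0.05, against 5.53% and 5.57% of all genes. The 4 became 1 without floxed-dam library 3 or without knockout-dam library 4, and the 3 became 1 without floxed-dam library 2.

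**Figure D4:**
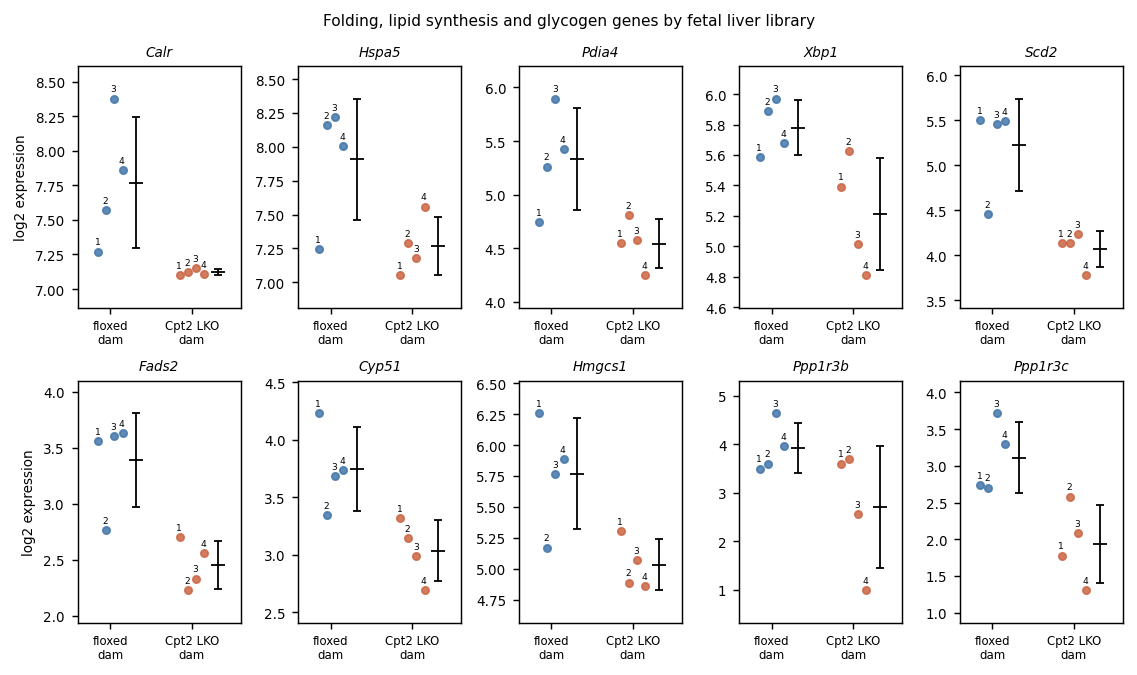
Log2 expression (y axis) of 10 genes of ER folding, lipid synthesis and glycogen in each library, drawn as in the plot of fatty acid oxidation genes (points with replicate numbers, mean ± SD, n = 4). Calr, Scd2, Fads2, Cyp51 and Ppp1r3c have all knockout-dam libraries below all floxed-dam libraries, and the other 5 genes overlap.

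Growth and plasma protein genes varied with the presumed littermates. In the insulin-like growth factor axis the median was -0.27 over 15 genes, 4 of which were lower at an unadjusted p under 0.05, against 5.57% of all genes. The 4 became 1 without floxed-dam library 3, floxed-dam library 4 or knockout-dam library 4, and 7 without floxed-dam library 1. The growth hormone receptor Ghr differed by -0.58 ± 0.18 and the growth inhibitor Grb10 by -0.75 ± 0.29 (adjusted p = 0.351 and 0.383). The axis had a median of -0.01 and no such gene without floxed-dam libraries 3 and 4. Igfbp1, a fasting-induced binding protein, was at 9.39, 9.44, 9.32 and 9.72 against 10.58, 9.39, 9.62 and 10.20 (0.48 ± 0.25, adjusted p = 0.489). Knockout-dam libraries 1 and 4 were the high ones, and the difference was 0.0339 without them. Coagulation and complement genes had 22 of 24 negative differences and a median of -0.24, which was 0.09 without floxed-dam libraries 3 and 4. In the same way the hepatocyte list went from -0.11 to 0.36 and that of bile acid synthesis and transport from -0.34 to 0.22. Cyp7a1, which sets the pace at which bile acids are made, was at 0.03, 0.57, 2.79 and 2.18 against 1.03, 1.76, 2.07 and -0.22. Its difference of -0.23 ± 1.05 (95% interval -2.43 to 1.96; adjusted p = 0.953) was 0.86 without those libraries.

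Blood cell lists had medians from -0.21 to 0.01. The median difference was -0.06 over 33 erythroid genes, -0.21 over 25 genes of neutrophils and myeloid progenitors, -0.11 over 19 of macrophages and Kupffer cells, -0.07 over 17 of megakaryocytes and 0.01 over 11 of B lymphoid cells. Between 0 and 2 genes of each were lower at an unadjusted p under 0.05 and none was higher (5.57% and 5.53% of all genes). Of the neutrophil and myeloid genes 22 of 25 had negative differences, and their median was -0.0920 without knockout-dam library 4. Of the megakaryocyte genes 13 of 17 were negative, and their median was -0.39 without floxed-dam library 1 and 0.26 without floxed-dam libraries 3 and 4. Endothelial genes had a median of -0.01 and stellate and matrix genes one of -0.11, each over 19 genes. Proliferation genes were at 0.12 (29 genes of DNA replication) and 0.07 (26 of mitosis). The pancreas list had 5 tested genes and a median of 1.05, which was 0.45 without knockout-dam library 2.

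The effect of the maternal Cpt2 knockout was set beside that of a maternal Ppara knockout in the same series (Ppara heterozygous fetuses of knockout dams minus those of heterozygous dams, KODam_HetFetus minus HetDam_HetFetus, n = 4 each, C57BL/6, 24 h fast, stage E17.5). The 2 comparisons share no libraries. They also differ in fetal genotype (Ppara heterozygous against Cpt2f/f) and in the control dams (Ppara heterozygous against floxed). The titles call the maternal Cpt2 knockout liver-specific, whereas those of the maternal Ppara knockout name no tissue. These differences cannot be told apart from the maternal gene. In the Ppara comparison, KODam_HetFetus libraries 1 and 2 carry the same dam number and are presumed littermates. No gene passed the test of the difference between the effects, 0 of 11798 (0%), and 2343 (19.9%) did at an unadjusted p under 0.05, of which 1829 (15.5%) had the more negative value under Cpt2 and 514 (4.36%) the more positive. The median of all differences between the effects was -0.15, and with trimmed-mean scaling of the libraries it was -0.01, with 908 more negative and 1112 more positive. Directions of small differences between the effects therefore rest on the scaling. Without knockout-dam library 4, 421 genes differed, and 0 to 2 did with any other library left out. With litter as a random block 0 genes differed, 1694 had an unadjusted p under 0.05, and the lowest adjusted p was 0.250.

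Ehhadh was higher by 3.45 ± 0.26 in fetuses of Ppara knockout dams and by 1.40 ± 0.26 in those of Cpt2 knockout dams. The difference of the effects was -2.05 ± 0.37 (adjusted p = 0.0992) and shared the lowest adjusted p of that test. Plin2 was higher by 1.80 ± 0.23 under maternal Ppara loss and by 0.11 ± 0.23 under maternal Cpt2 loss, a difference of -1.69 ± 0.33 (adjusted p = 0.0992). Acot2 followed the same order, at 3.01 and 1.00 (difference -2.01 ± 0.53, adjusted p = 0.124), as did Acot1 at 2.06 and 0.72 (-1.34 ± 0.40, adjusted p = 0.129).

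Other genes had effects of similar size. Fgfr2 was at -1.32 ± 0.20 under maternal Ppara loss and -1.17 ± 0.20 under maternal Cpt2 loss, and Adm at 1.27 ± 0.24 and 1.18 ± 0.24 (differences of 0.15 ± 0.28 and -0.09 ± 0.34, adjusted p = 0.785 and 0.893). Pnpla2 was at 0.90 and 1.10, Scd2 at -0.95 and -1.16, and Tcea3 at -0.93 and -0.92. Hspa5 had opposite signs, at 0.24 ± 0.19 under maternal Ppara loss and -0.64 ± 0.19 under maternal Cpt2 loss (difference -0.88 ± 0.27, adjusted p = 0.135). Cyp7a1 was at -3.96 ± 1.05 and -0.23 ± 1.05 (difference 3.72 ± 1.48, adjusted p = 0.186). For none of these genes did the test separate the effects.

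**Figure D5:**
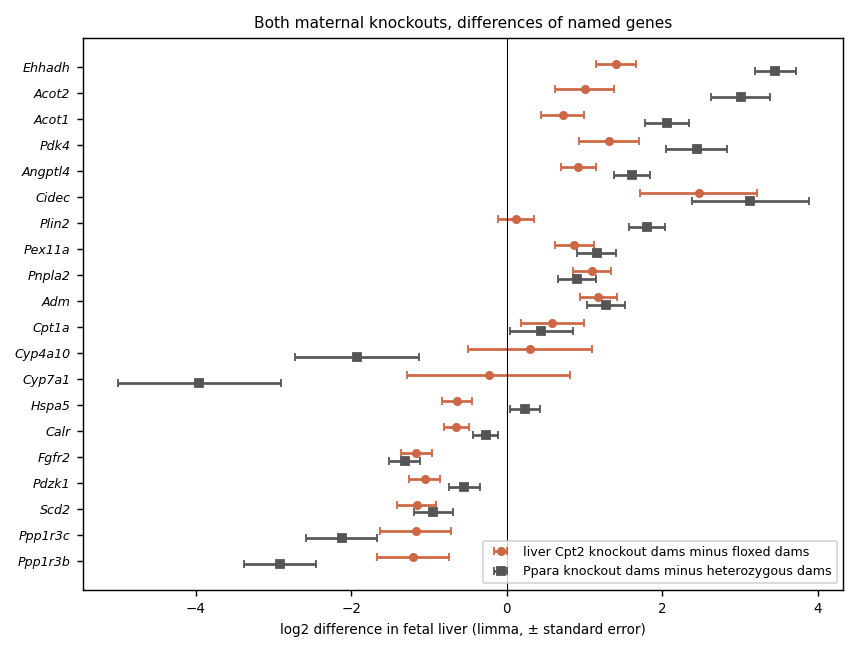
Log2 differences ± SE (x axis; limma, n = 4 libraries per group) of 20 named genes in fetal liver for liver Cpt2 knockout dams minus floxed dams (orange circles) and for Ppara knockout dams minus heterozygous dams (grey squares). Ehhadh, Acot1, Acot2 and Plin2 lie farther right for Ppara, whereas Fgfr2, Adm, Pnpla2 and Scd2 lie close together.

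Fetal sex was balanced in both groups. The effect of the maternal knockout did not pass the test for a difference between male and female fetuses at any gene, 0 of 11788 (0%), and did so at an unadjusted p under 0.05 for 77 genes (0.653%). With 2 fetuses per sex and group, this test had little precision. Among the controls each sex held 1 of the presumed littermates, so the distance between the 2 pairs of controls fell within each sex. Why the share at that p was so low was not tested.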

How the data were processed

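RNA was taken from 20 fetal livers, of which 8 form the comparison. Stranded poly(A) libraries were prepared from Trizol RNA after a column step and read from one end, per the labels' protocols. The submitters' processing notes name bcl2fastq 2.17.1.14, Partek 7.0 and the build GRCm38.p6. Which aligner and counting rule were applied, and whether strand was used, is not given in the sources used here. The deposited table has 45802 gene entries with log2 values. Its libraries have equal quantiles (largest spread 4.8e-05), so it was quantile-normalised before deposit. No source names the quantity that was logged. The lowest values of 1414 pseudogenes changed by -1.01 per doubling of length, as per-length values on a log2 scale do. Reads could not be recovered, so depth is unknown and no count test was run.

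All 20 libraries entered one limma 3.58.1 fit in R 4.3.3 with a mean per group (lmFit, contrasts.fit, eBayes with trend, 15 residual and 4.09 prior degrees of freedom), two-sided, with Benjamini-Hochberg adjustment over all tested genes. Of 11807 genes kept by the minimum, 2 had no value in a group compared. The fit was tested on simulated data. Each fetus counted as independent, although litter is read from an unexplained number in the labels. The p-values may therefore mix the spread of litters and of fetuses. With litter as a random block, the estimated correlation between presumed littermates was 0.566 over all 20 libraries. The 1311 genes at an unadjusted p under 0.05 then became 918.

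The comparison, the members and the gene lists were chosen with earlier results of these data known. Named genes were Cpt2, Ppara, a panel of 15, called genes by size, and, as fewer than 10 were called, the 10 with the smallest p. Since no list member was called, up to 4 members with the smallest p of each list described were also named, after their values were seen, as were Tat, Pck1, Canx, Herpud1, Creld2, Hsp90b1, Pdia6, Rn7s2, Elovl5, Alg12, Commd4 and LOC108168067. Some named genes are not reported here. Alternatives covered the minimum level, pseudocounts of 0.1 and 4, scaling, the libraries in the fit, litter, replicate number, sex, array weights, the variance trend and each library left out. Another 3 were added after seeing the data: floxed-dam replicates 3 and 4 left out, the same pair averaged, and knockout-dam replicates 1 and 4 left out. Figures were drawn in Python.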

Additional observations from a re-analysis of the deposited data

Results flagged for a closer look

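Of 138 groups of 4 libraries examined for a library far from the others, 6 had one, and chance alone flags about 1 in 20 groups. Scd2 was at 4.46 in floxed-dam replicate 2, with the other floxed-dam libraries at 5.46 to 5.51. In the same library Fads2 was at 2.76, with the others at 3.56 to 3.63. Elovl6 was highest in floxed-dam replicate 3, at 4.04 against 3.24 to 3.37. Car8 was at 1.56 in knockout-dam replicate 2, with the others at 1.00 to 1.06. The summed linear level of pancreas genes was 924 in knockout-dam replicate 2 and 68.9 to 120 in the other knockout-dam libraries. The summed level of mesothelium genes was 82.7 in knockout-dam replicate 1 and 55.4 to 56.8 in the others.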

How the results depend on the processing

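With 0 genes called as reported, quantile normalization of the tested genes gave 1 call, lower, and array weights gave 6 calls, 1 higher (Commd4) and 5 lower (Fgfr2, Pdzk1, Fam114a1, Scd2 and Calr). Leaving out 1 library gave 0 to 1 calls, 0 higher and 0 to 1 lower. The 1311 genes at an unadjusted p under 0.05 became 1982 with no minimum level, where 22171 genes were tested, 2407 with array weights, 390 without knockout-dam replicates 1 and 4, and 616 to 1592 with 1 library left out. For the difference of the maternal effects, 0 calls became 2 (2 lower) with a pseudocount of 4, 315 (62 higher, 253 lower) with array weights, 1 lower without knockout-dam replicates 1 and 4, and 0 to 421 with 1 library left out (0 to 78 higher, 0 to 343 lower). The cause of these changes was not tested. With the replicate number as a block there were 0 calls and 1368 genes at an unadjusted p under 0.05, and with litter as a block 0 and 918. The numbers share only a name: same-numbered libraries correlated at -0.03, 0.08, 0.20 and 0.21 in their deviations from the group means. Of 1439 values of 63 named genes over 23 settings, 1417 kept their direction and side of the threshold, 7 passed it and 15 changed sign. The sign changes were Cpt2 at 0.15 without floxed-dam replicates 3 and 4, Ppara at -0.19 and Cyp4a10 at -0.0417 with array weights, Plin2 (entry Plin2_2) at -0.0918 without knockout-dam replicates 1 and 4, and Cyp7a1 at 0.00681 with litter as a block, 0.86 without floxed-dam replicates 3 and 4, 0.13 with these averaged and 0.52 without knockout-dam replicates 1 and 4. The others arose with 1 library left out, where Ppara ran from -0.10 to 0.18, Plin2 from -0.0106 to 0.25, Cyp4a10 from -0.0123 to 0.75 and Cyp7a1 from -0.69 to 0.23. Those that passed were Fgfr2 at -1.18, -1.32 and -1.35 (quantile normalization, array weights, without floxed-dam replicate 1; adjusted p = 0.0277, 0.00748 and 0.014), and with array weights Pdzk1, Fam114a1, Scd2 and Calr (adjusted p = 0.0413, 0.0413, 0.0311 and 0.0413). Depth is unknown, so the precision it gives to low values cannot be stated.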
